A study of Bos taurus with 2 samples.

Results

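Isolated CpGs in CpG deserts were defined here by spacing alone. An isolated CpG was an autosomal CpG whose nearest listed CpG on either side lay more than 500 bp away and that had 5 or more reads in Bull1 and in Bull2. Of 27203217 CpGs listed for the series, 26041302 were autosomal, 67150 of these were spaced so widely (0.258%), and 64040 also passed the coverage minimum. They made up 0.277% of the 23108714 autosomal CpGs that passed it. The nearest CpG lay at a median of 589 bp and at most 2448 bp, the farther neighbour at a median of 813 bp, and 1528 of the isolated CpGs had more than 1000 bp free on both sides.

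The data were whole-genome bisulfite sequencing (WGBS) of sperm DNA from monozygotic (MZ) twin Holstein bulls, Bull1 and Bull2, which the series describes as divergent in fertility. No genotype or treatment separated the twins. Frozen semen of both was taken at 72 months of age, and the series held 1 library per bull. With 1 library each, a difference between Bull1 and Bull2 compares 2 libraries. A difference between the animals, between ejaculates and between library preparations cannot be told apart, and intervals are 95% intervals that cover counting error only.

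In mammals a CpG dinucleotide is a place where DNA is methylated on both strands. Methylated cytosine deaminates to thymine, and the genome has lost most of its CpGs in this way, except in CpG islands, which are commonly unmethylated in the germ line. Sperm DNA is densely methylated outside such islands, so a CpG that stands alone in a long CpG-poor stretch lies far from the places where low methylation is usually found. Bisulfite turns unmethylated cytosine into uracil, and the share of reads that still show cytosine is the methylation level of the site. The files carried no gene annotation, so sites are named by chromosome and position on the build UMD3.1, as listed. Whether positions were counted from 0 or 1 is not given in the sources used here.

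Of the isolated sites listed, 95.4% passed the coverage minimum, against 88.7% of the other autosomal CpGs. The other CpGs fell short where they were crowded: 79.1% passed with a neighbour within 10 bp, but 96.2% at over 200 and up to 500 bp, which was above the isolated CpGs. Of the 3110 isolated sites left out, 2592 had under 5 reads in Bull1 and 1625 in Bull2, and some failed in both. Sequenced fragments were 200 to 300 bp long, so a fragment seldom held more than 1 isolated CpG and their reads were counted nearly independently of each other. Reads of crowded CpGs were shared between neighbours.

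Isolated CpGs were highly methylated in both libraries. In Bull1, 1134675 of 1360991 reads were methylated, a level of 83.4% (83.3 to 83.4). In Bull2, 1194466 of 1519723 reads were methylated, a level of 78.6% (78.5 to 78.7). The 23044674 other autosomal CpGs stood at 75.5% in Bull1 and 71.3% in Bull2, so isolated CpGs were 7.89 and 7.26 percentage points higher. The size of this gap depended on a small number of very deep sites. When the CpGs of the top 0.1% of coverage in either library were left out (over 530 reads in Bull1 or over 537 in Bull2), isolated CpGs stood at 83.5% and 78.8%, the other CpGs at 78.8% and 74.8%, and the gap shrank to 4.70 and 3.98 points. Taken as unweighted means of site levels, isolated CpGs stood at 83.1% and 78.5% and the others at 79.8% and 76.2%. Other CpGs weighted to the coverage classes of the isolated ones in both libraries stood at 82.6% and 78.5%, so at like coverage the levels nearly met, above all in Bull2. The median site was 89.5% for both kinds of CpG in Bull1, and 84.1% for isolated against 85.0% for other CpGs in Bull2.

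Levels rose with distance to the nearest CpG and were then flat from about 100 bp onward. CpGs with a neighbour 2 to 10 bp away stood at 69.4% in Bull1 and 65.4% in Bull2. At over 10 and up to 50 bp the levels were 74.5% and 70.4%, and from there to 100 bp they were 82.4% and 78.4%. The 3 nearest classes thus climbed by steps far larger than the counting error. Over 100 and up to 200 bp the levels were 83.4% and 79.1%, and over 200 and up to 500 bp they were 83.7% and 79.1%. Beyond the 500 bp limit, isolated CpGs up to 600 bp (34853 sites) stood at 83.6% and 78.7%. Those over 600 and up to 800 bp (22695 sites) stood at 83.1% and 78.4%, and those over 800 and up to 1000 bp (4964 sites) at 83.4% and 78.6%. The plateau did not break at the limit that defines an isolated CpG. The 1528 sites with over 1000 bp free were slightly lower than those up to 600 bp, by -0.520 points in Bull1 (-0.945 to -0.095) and -0.837 points in Bull2 (-1.27 to -0.399). The climb at short distances was smaller but present when very deep sites were left out, from 72.6% in Bull1 at 2 to 10 bp to 83.1% at over 50 and up to 100 bp.

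**Figure D1:**
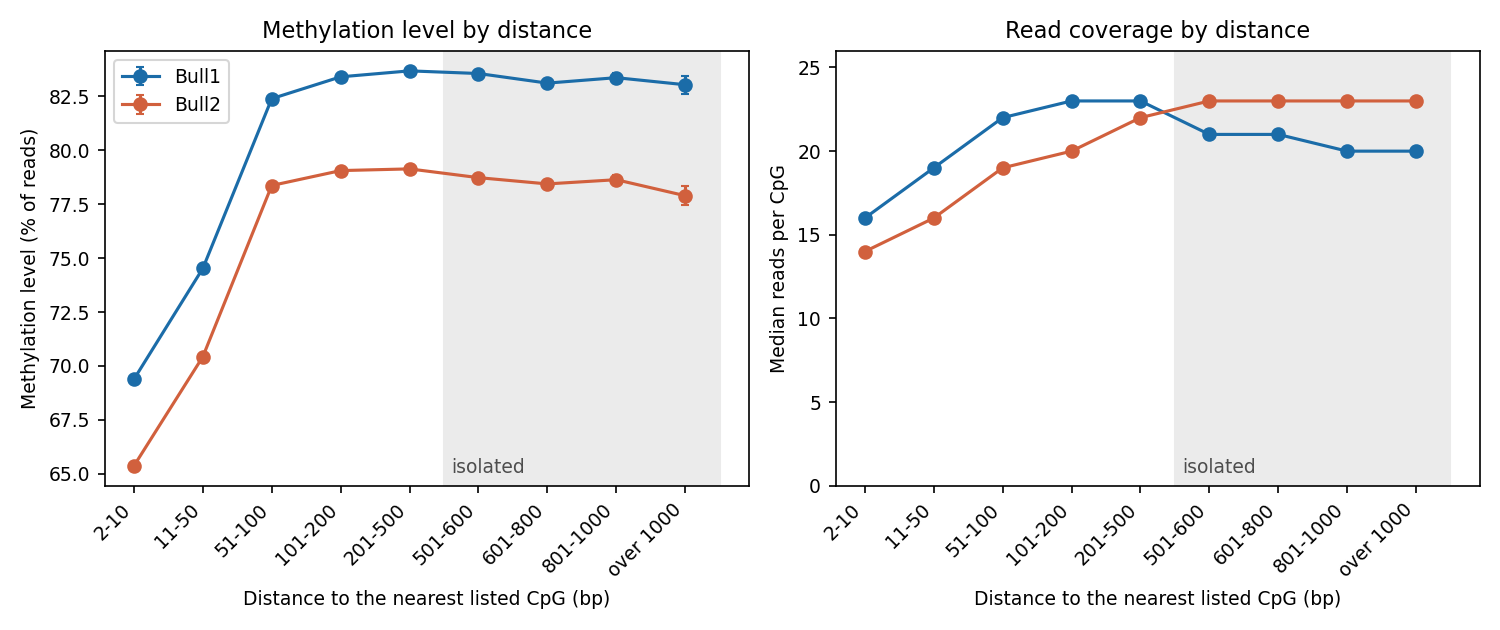
Methylation level (left, % of reads, bars are 95% Clopper-Pearson intervals) and median reads per CpG (right) of autosomal CpGs by distance to the nearest listed CpG in bp, for Bull1 and Bull2; the grey area holds the isolated CpGs. Levels climb from 69.4% and 65.4% at 2 to 10 bp to 83.7% and 79.1% at over 200 and up to 500 bp and stay near there, while the deeper library changes from Bull1 to Bull2.

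Just inside and just outside the limit the sites looked alike once 1 deep site in each group was set aside. The 499 CpGs with a neighbour at exactly 500 bp had levels of 82.4% and 77.9%, or 83.0% and 78.1% without that site. The 531 CpGs 1 bp beyond had 78.0% and 73.6%, but 84.0% and 79.4% without a single site on chromosome 23 at 11037414, which held 1064 reads in Bull1 and 1147 in Bull2 at levels of 12.1% and 9.15%. That site was 1 of 7 isolated CpGs in the top 0.1% of coverage. Of the 7, 4 lay on chromosome 17 between 50575338 and 51535935, with 409 to 1250 reads in Bull1. The deepest of these, at 50867396, had levels of 8.16% of 1250 reads and 8.96% of 1105 reads, and the CpGs within 2 kb of it stood at 10.6% and 10.2%. Its neighbour in the list, at 50641840, stood at 52.8% and 51.8%.

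The order of the libraries by read depth at isolated CpGs was the reverse of that at other listed CpGs. Summed over all listed CpGs, Bull1 had 544424736 reads and Bull2 499287038, sums that count a read at each CpG it covers and are not the sequencing depth of a library. The paper reports more mapped reads and a greater average depth for Bull2 than for Bull1. The order at isolated CpGs was thus that of the reported depths, and other CpGs departed from it. At other autosomal CpGs the median was 19 reads in Bull1 and 16 in Bull2. At isolated CpGs the median was 21 reads in Bull1 (quartiles 15 and 27) and 23 in Bull2 (17 and 29). The ratio of Bull2 to Bull1 reads was 1.12 at isolated CpGs and 0.916 at others, and Bull2 was the deeper library at 53.3% of isolated sites but 34.8% of others. On 28 of 29 autosomes Bull2 had more reads than Bull1 at isolated CpGs, with chromosome 25 the exception at a ratio of 0.996, and on 0 of 29 at other CpGs. The ratio changed with spacing within both kinds of CpG: it was 0.938 at 2 to 10 bp, 0.888 at over 50 and up to 100 bp, 0.999 at over 200 and up to 500 bp, 1.10 at over 500 and up to 600 bp and 1.16 above 1000 bp. Its cause was not tested.

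Bull1 was more methylated than Bull2 at isolated CpGs, by 4.77 points (4.68 to 4.86). At other CpGs the difference was 4.14 points, so the excess at isolated CpGs was 0.629 points. That excess moved with the processing, to 1.22 points at sites with at least 20 reads in each library and 1.08 points between means of site levels, and it kept its sign under every alternative tried. In terms of unmethylated reads, isolated CpGs had 16.6% in Bull1 and 21.4% in Bull2, an odds ratio of 1.37 against 1.24 at other CpGs. The direction was widespread: Bull1 was higher at 64.5% of isolated sites, Bull2 at 30.8%, and 4.74% were equal. Among other CpGs these shares were 57.4%, 32.5% and 10.04%. When other CpGs were weighted to the coverage classes of the isolated CpGs in both libraries their difference was 4.13 points, and when they were weighted to coverage and pooled level together it was again 4.13 points. Across classes of the Bull2 to Bull1 depth ratio, the difference at isolated CpGs stayed between 4.499 points, where Bull2 had at most 0.5 of the Bull1 reads, and 4.84 points, in the class next below a ratio of 2, and was 4.64 points where Bull2 had more than 2 times the reads.

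The difference grew slowly with spacing. It was 4.01, 4.09 and 4.02 points in the 3 classes up to 100 bp, 4.35 points at over 100 and up to 200 bp and 4.54 points from there to 500 bp. Isolated CpGs had 4.83, 4.67 and 4.73 points in the classes up to 1000 bp and 5.14 points (4.54 to 5.74) beyond. The intervals of the isolated classes overlapped.

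Most isolated CpGs were either highly methylated or, much less often, almost without methylated reads. In Bull1, 78.1% had a level of 80% or more, 18.5% lay between 20% and 80%, and 3.37% lay under 20%. In Bull2 the same shares were 65.3%, 31.2% and 3.42%. The difference between the libraries thus lay between the upper classes, while the share of weakly methylated sites was nearly equal. Joining both libraries, 38392 sites (59.95%) were at 80% or more in both, 11637 (18.2%) were at 80% or more in Bull1 and between 20% and 80% in Bull2, and 3451 (5.39%) were the reverse. Only 4 sites lay at opposite ends, 3 high in Bull1 and under 20% in Bull2 and 1 the other way. Among other CpGs the shares were similar, with 60.9% at 80% or more in both, 15.4% high in Bull1 only with Bull2 between 20% and 80%, 5.10% the reverse, and 0.00461% and 0.00261% at opposite ends.

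Isolated CpGs under 20% in both libraries were rarer than among other CpGs. They numbered 1932, or 3.02% (2.89 to 3.15), against 7.68% of other CpGs. This order was set by crowded CpGs: a pooled level under 20% was met at 15.1% of CpGs at 2 to 10 bp and 2.92% at over 200 and up to 500 bp, against 3.28% of isolated CpGs up to 600 bp. Within them a complete lack of methylated reads was common: 1465 isolated CpGs, 2.29% of all, had no methylated read in either library, which is 75.8% of the sites under 20%. Among other CpGs 4.85% had none, 63.2% of those under 20%. With spacing, the share without a methylated read was 9.41% at 2 to 10 bp, 1.66% at over 100 and up to 200 bp, 2.23% at over 500 and up to 600 bp and 2.42% above 1000 bp. It fell and then rose a little. A thymine in the animals where the reference has cytosine also reads as unmethylated at every read, is shared by MZ twins, and cannot be told apart here from an unmethylated cytosine.

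The pooled level of the 42656 isolated CpGs with at least 15 reads in each library showed the same shape at finer grain. Levels of 80% to 90% held 45.4% of them and levels of 90% to 100% held 32.9%, against 42.6% and 36.6% of the 12088330 other CpGs with that depth. At the low end, 2.10% of isolated CpGs lay under 5% and only 0.152% between 5% and 10%, where other CpGs had 2.52% and 0.819%. At this depth the sets were closer at the floor than just above it. Without the demand for 15 reads, and by the level in Bull1 alone, 2.63% of isolated and 5.98% of other CpGs lay under 5%. Both the minimum and the measure differ there. In the middle of the pooled levels at 15 reads, 2.58% of isolated CpGs lay between 40% and 50% against 2.04% of others. The bin of 50% to 55% held 1.43% against 1.06%. A heterozygous thymine also gives a level near the middle and cannot be told apart here from partial methylation.

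**Figure D2:**
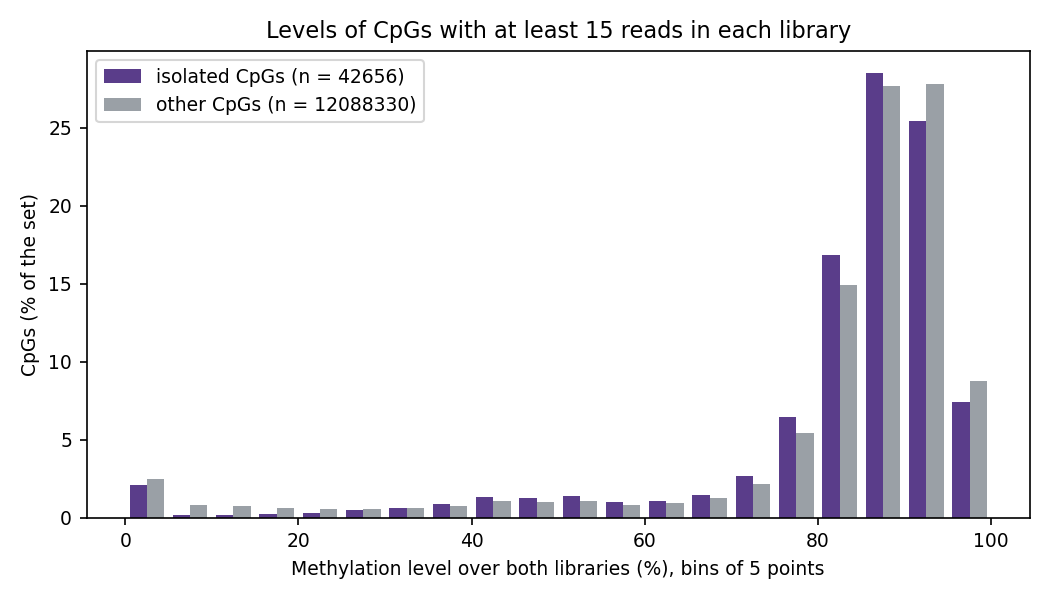
Methylation level over both libraries, in bins of 5 points, of isolated CpGs (n = 42656) and other CpGs (n = 12088330) with at least 15 reads in each library; bars give the % of each set. Isolated CpGs have 2.10% of sites under 5% and 0.152% between 5% and 10%, and most sites above 80%.

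Sites picked by their level in 1 library were then read in the other, which the choice did not use. Of 821 isolated CpGs with at least 15 reads and no methylated read in Bull1, 750 (91.4%) had none in Bull2 either, their level there was 0.428%, and 0 were at 80% or more. Of 829 picked in the same way in Bull2, 750 (90.5%) had none in Bull1 and the level was 0.628%. Isolated CpGs without methylated reads were thus common to the twins. The 914 sites at 40% to 50% in Bull1 had a median of 44.4% in Bull2 (quartiles 35.8 and 53.3), with 1.64% of them under 20% and 2 at 80% or more. The 954 sites at 40% to 50% in Bull2 had a median of 48.3% in Bull1 (40.6 and 57.1). Sites near the middle thus stayed near it, while those picked higher up in Bull2 read higher in Bull1. The level used for the choice carries counting error, and most isolated CpGs lie above 80%. A move toward that range in the other library is therefore partly built into the choice. The same holds for sites picked as fully methylated. The 2312 sites at 60% to 70% in Bull2 had a median of 81.8% in Bull1, and 1294 of them (56.0%) were at 80% or more there. The 1152 sites at 60% to 70% in Bull1 had a median of 65.6% in Bull2, where 210 (18.2%) were at 80% or more. At the same minimum of 15 reads in each library, the 4517 sites fully methylated in Bull1 stood at 86.9% in Bull2, while the 1359 fully methylated in Bull2 stood at 92.4% in Bull1.

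Across the 64040 isolated sites the levels of the libraries correlated with a Pearson r of 0.841, against 0.8998 across other CpGs. This is a description across sites, which are not replicates. At the median depths, counting error alone has a standard error of 8.13 points per site in Bull1 and 8.55 in Bull2. After the sampling variance was subtracted, r was 0.993 for isolated and 0.997 for other CpGs. Among the 61955 isolated CpGs with a pooled level of at least 20%, r was 0.694, and 0.984 with sampling variance removed, against 0.670 and 0.988 at other CpGs of that level, so the order of the observed r was turned there. The spread of levels between sites, sampling removed, was 19.4 points (SD) in Bull1 and 18.5 in Bull2, narrower than the 26.0 and 24.9 points of other CpGs. At a pooled level of at least 20% it was not narrower, at 12.9 and 12.3 points against 12.7 and 12.2 at other CpGs. Over all isolated sites the spread of the difference between the libraries was 11.6 points as observed and 2.42 points with sampling removed, against 2.19 at other CpGs. Nearly all of the site-to-site variation in the twin difference was of the size that counting produces.

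Deep and shallow isolated CpGs did not have the same level. Sites with 10 to under 20 reads over both libraries stood at 74.5% in Bull1 and 69.98% in Bull2, and 10.2% of them had a pooled level under 20%. At 60 to under 80 reads the levels were 84.5% and 79.6% and the share under 20% was 2.33%. The 732 sites with 80 or more reads were lower again, at 72.6% and 68.8%, or 78.7% and 74.3% without the 7 in the top 0.1% of coverage. Poorly covered and very deep isolated CpGs were both less methylated than those in between, and the excess of Bull1 over Bull2 was present in every depth class, from 3.78 to 4.88 points.

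Levels of isolated CpGs followed those of their surroundings in part. The surroundings were the other tested CpGs within 2 kb, all of them more than 500 bp away, and 62530 isolated CpGs (97.6%) had at least 5 of them, with a median of 16. Over these sites the mean level was 83.1% in Bull1 and 78.5% in Bull2 for the isolated CpGs and 82.9% and 78.5% for their surroundings. The isolated CpG and its neighbourhood were therefore level on average by these measures. Surroundings were pooled by reads within 2 kb, very deep CpGs included, while each isolated CpG entered by its own level. Site by site the correlation with the surroundings was 0.381 in Bull1 and 0.368 in Bull2, before any allowance for counting error. The mean difference between the libraries was 4.65 points at the isolated CpGs and 4.33 points around them.

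Where the surroundings were weakly methylated, the isolated CpG was higher than they were. These values leave out the 7 isolated CpGs in the top 0.1% of coverage. Very deep CpGs were kept in the surroundings, pooled by reads, and can shift the level that sets a site's class. How far they did was not tested. At 233 sites whose surroundings lay under 20%, the isolated CpGs stood at 51.5% in Bull1 and 49.7% in Bull2 against 15.2% and 14.8% around them. With 3 deep sites put back these levels were 42.0% and 40.5%. At 1260 sites with surroundings of 20% to 40% they stood at 49.8% and 48.5% against 31.6% and 30.7%. At 2840 sites with surroundings of 40% to 60% they stood at 63.9% and 59.4% against 53.1% and 50.5%. The gap closed as the surroundings rose. At 40198 sites with surroundings of 80% to 90% the isolated CpGs stood at 87.3% and 82.2% against 88.4% and 83.7%. At 4504 sites with surroundings of 90% or more they stood at 88.1% and 83.0% against 92.7% and 89.1%. The classes were set by the measured level of the surroundings, which carries counting error of its own.

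The twin difference also followed the surroundings. Without the same 7 sites it was 1.87 points (-0.0778 to 3.82) at isolated CpGs whose surroundings lay under 20% and 1.30 points (0.475 to 2.13) at 20% to 40%. It was 4.53 points (3.99 to 5.07) at 40% to 60% and 5.09 points (4.98 to 5.19) at 80% to 90%. The interval of the class of 20% to 40% lay below those of all higher classes. Between means of site levels the difference was larger in the low classes, at 3.33 and 2.16 points, and 4.84 points at 80% to 90%.

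**Figure D3:**
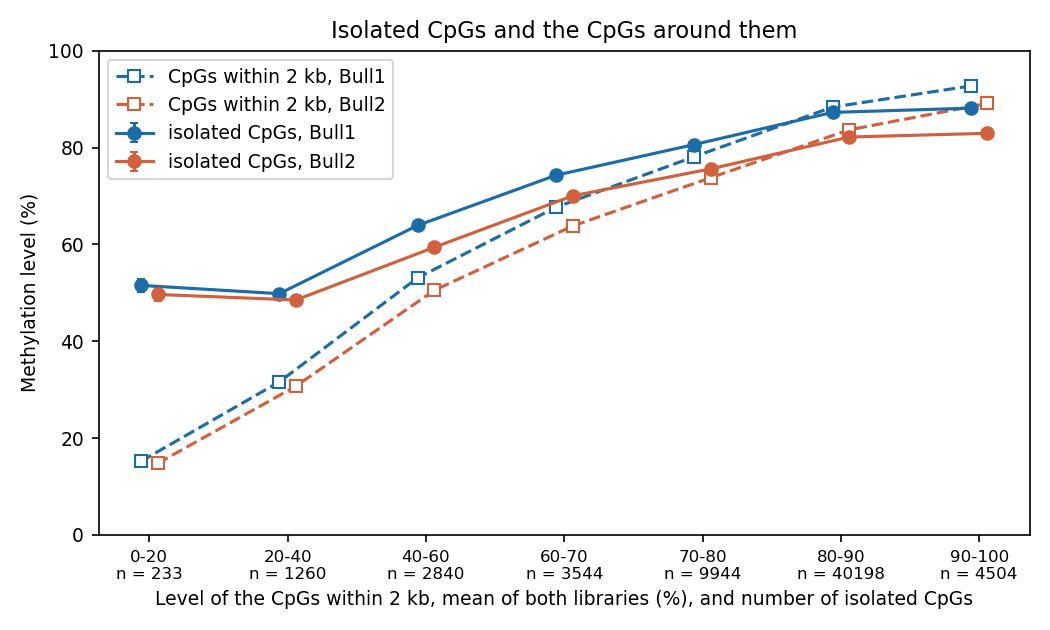
Methylation level (%) of isolated CpGs up to the coverage maximum (filled, % of reads with 95% Clopper-Pearson intervals) and mean level of the tested CpGs within 2 kb of them (open) in Bull1 and Bull2, by class of the level of those surroundings. The surroundings include very deep CpGs. Isolated CpGs stand at 51.5% and 49.7% where the surroundings stand at 15.2% and 14.8%, and at 88.1% and 83.0% where they stand at 92.7% and 89.1%.

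Isolated CpGs of low level lay in unlike surroundings. The 1465 without a methylated read lay in mostly methylated surroundings, with a median of 77.1% (quartiles 66.4 and 84.5). Of the 1419 with enough CpGs around them, 576 (40.6%) had surroundings of 80% or more and 9.73% had surroundings under 50%. The 467 other sites under 20% in both libraries, which did have a methylated read, lay in weaker surroundings, with a median of 50.4% (28.2 and 79.2), and 49.9% had surroundings under 50%. A total absence of methylated reads and a low level with some methylated reads were thus met in different neighbourhoods. The sites without a methylated read also had fewer reads, with medians of 17 in Bull1 and 21 in Bull2, against 21 and 22. At a given low level, a site with few reads more often shows no methylated read. Part of this difference in depth is therefore built into the classes. Isolated CpGs of a pooled level of 40% to 50%, 1696 in number, had surroundings like those of the sites without a methylated read, with a median of 77.0% (60.1 and 84.5). The 38392 sites at 80% or more in both libraries had surroundings of 86.0% at the median, and 1.28% had surroundings under 50%.

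The deepest sites without a methylated read show what counting allows at a single site. A thymine in both twins where the reference has cytosine would give the same reads and cannot be told apart here. On chromosome 24 at 25423418 there were 0 of 44 methylated reads in Bull1 and 0 of 60 in Bull2, which allows levels of up to 6.82% and 5.00% when 3 counts are taken as the limit. The exact two-sided intervals reach 8.04% and 5.96%. The CpGs within 2 kb of it stood at 92.7% and 86.2%. On chromosome 12 at 52151241 there were 0 of 47 and 0 of 42, in surroundings of 88.2% and 84.0%. On chromosome 6 at 48374457 there were 0 of 37 and 0 of 50, in surroundings of 89.2% and 88.4%. These 3 showed no methylated read in either twin amid methylated DNA. On chromosome 6 at 74596463 there were 0 of 32 and 0 of 54, in surroundings of 72.5% and 75.6%. On chromosome 12 at 73087497 there were 0 of 47 in each library, but its surroundings were low too, at 35.7% and 31.7%.

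The CpGs with the longest free stretches around them were highly methylated. The farthest, on chromosome 12 at 57146743 with 2448 bp to its nearest neighbour, had 18 of 21 methylated reads in Bull1 and 12 of 12 in Bull2. On chromosome 8 at 32672167, 2243 bp from its nearest neighbour, there were 24 of 25 and 32 of 35. On chromosome 11 at 35905201, with 2109 bp, there were 17 of 19 and 12 of 13. All of these lay above 80% in both libraries, as did the site on chromosome 7 at 94339613 (2014 bp, 8 of 8 and 9 of 11) and that on chromosome 4 at 82656495 (2003 bp, 23 of 25 and 25 of 27).

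Isolated CpGs close to each other had more similar levels than those far apart. For consecutive isolated CpGs 500 to 1000 bp apart (5872 pairs), r was 0.236 in Bull1 and 0.210 in Bull2. At 2 to 5 kb (6824 pairs) it was 0.202 and 0.179, at 10 to 50 kb (27517 pairs) 0.126 in both, and at 50 to 200 kb (9983 pairs) 0.0765 and 0.0752. At 1 to 2 kb (2691 pairs) it was 0.197 and 0.187, so the decline was not steady at short range in Bull1, while in Bull2 it ran through every class. For the difference between the twins, r lay between -0.0117 and 0.0213 over the 6 classes of spacing, below 0 in 3 of them. The spread of this difference between sites was 11.6 points as observed and 2.42 points with sampling removed. Counting error keeps its r small even where neighbours share a difference, so these values cannot show whether they do.

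Weakly methylated isolated CpGs were counted in runs. Of the runs of consecutive isolated CpGs under 20% in the pooled level, with neighbours within 10 kb, 1877 held 1 site, 92 held 2 and 8 held 3, the longest. One run of 3, on chromosome 2 from 11464247 to 11473428, had 0 of 47 methylated reads in Bull1 and 0 of 63 in Bull2. Another, on chromosome 24 from 44624937 to 44627106, had 0 of 52 and 0 of 64. Runs near the start of chromosomes had some methylated reads: on chromosome 19 from 175269 to 182262 there were 11 of 89 and 10 of 87, on chromosome 23 from 395325 to 400058 there were 9 of 69 and 7 of 69, and on chromosome 29 from 419319 to 428993 there were 12 of 76 and 6 of 73. The remaining 3 runs of 3, on chromosomes 8 and 9, had 0 to 2 methylated reads in each library.

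Levels were lowest at the start of the autosomes. Bovine autosomes have their centromere at one end, and the listed positions start there. In the first 1 Mb, 957 isolated CpGs stood at 61.9% in Bull1 and 59.3% in Bull2, and 12.9% of them had a pooled level under 20%. From 1 to 2 Mb the levels were 72.5% and 68.4%, and from 2 to 5 Mb they were 74.8% and 70.9%. Levels then climbed to 80.8% and 76.0% at 5 to 10 Mb and 85.2% and 80.2% at 20 to 40 Mb, where 2.78% of sites lay under 20%. Other CpGs in the first 1 Mb were lower still, at 45.6% and 43.0%, or 52.3% and 49.99% without the very deep sites. From 2 to 5 Mb isolated and other CpGs stood together, with 74.8% and 71.1% at other CpGs. Without very deep sites, other CpGs of the stretch from 1 to 5 Mb were above the isolated ones in both libraries, at 76.8% and 73.2% from 2 to 5 Mb.

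**Figure D4:**
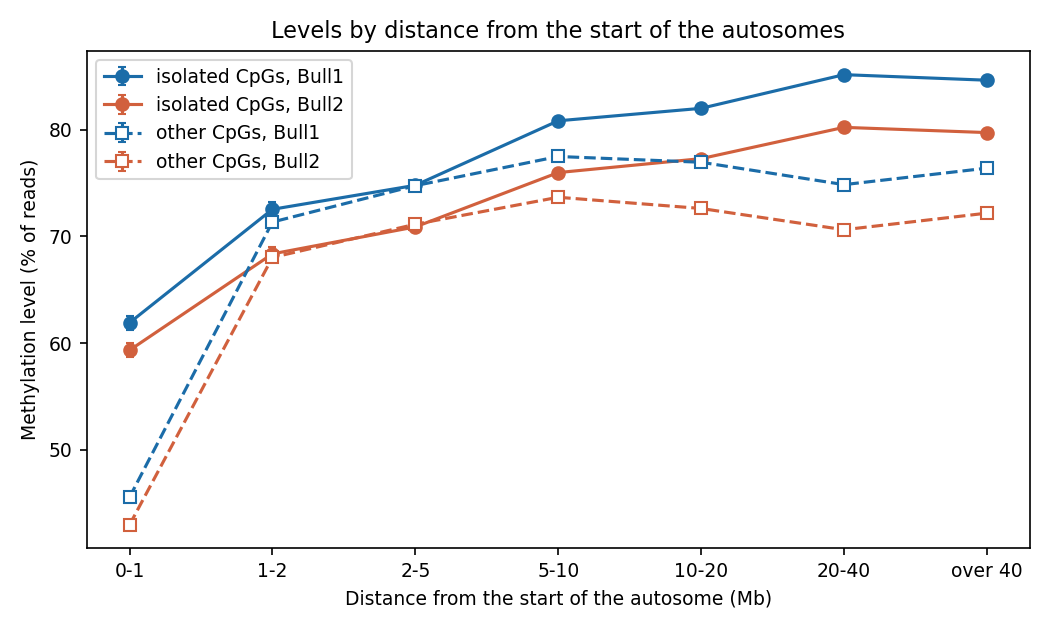
Methylation level (% of reads, bars are 95% Clopper-Pearson intervals) by distance from the start of the autosome in Mb, for isolated CpGs (filled) and other CpGs (open) in Bull1 and Bull2. Isolated CpGs rise from 61.9% and 59.3% in the first 1 Mb to 85.2% and 80.2% at 20 to 40 Mb.

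The difference between the twins was smallest at the start as well. It was 2.58 points (1.63 to 3.52) in the first 1 Mb and 4.94 points at 20 to 40 Mb. Other CpGs shared this, with 2.59 points in the first 1 Mb and 4.22 points at 20 to 40 Mb. By reads, very deep sites included, no excess at isolated CpGs was seen in the first 1 Mb. Between means of site levels the difference there was 2.96 points at isolated CpGs and 2.08 points at other CpGs. In the first 5 Mb as a whole, 4423 isolated CpGs (6.91%) stood at 71.6% and 67.9% with a difference of 3.61 points (3.20 to 4.02), and 308 of them (6.96%) were under 20% in both libraries. In the middle stretches 59042 isolated CpGs stood at 84.3% and 79.5% with a difference of 4.86 points, and 2.71% were under 20% in both. The last 5 Mb were poor in isolated CpGs: 575 of them, 0.0229% of the tested CpGs there, against 0.321% in the first 5 Mb. They stood at 76.3% and 69.1%, a difference of 7.22 points (6.16 to 8.28), which was 5.72 points without the very deep sites. Other CpGs of the last 5 Mb were higher, at 79.2% and 75.6%, with a difference of 3.58 points, or 3.48 without the very deep sites. Between means of site levels, the difference in the last 5 Mb was 5.09 points at isolated CpGs and 3.18 points at other CpGs. At isolated CpGs of the middle stretches it was 4.71 points by that measure. The low sites with some methylated reads were gathered at the start, with 145 of 467 (31.0%) in the first 5 Mb, against 163 of 1465 (11.1%) of those without a methylated read.

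Every autosome showed the higher level in Bull1 at isolated CpGs, with the interval of the difference above 0 on 29 of 29. The difference ranged from 3.83 points (3.08 to 4.57) on chromosome 26 to 5.52 points (5.15 to 5.88) on chromosome 4. It exceeded that of other CpGs on 26 of 29 autosomes, chromosomes 21, 24 and 26 being the exceptions. Isolated CpGs had the higher level on 27 autosomes in Bull1, not on 19 and 23, and on 25 in Bull2, not on 12, 15, 19 and 23. The levels of other CpGs in these counts included the very deep sites, on which the size of the gap depended.

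The number of isolated CpGs varied far more between chromosomes than their level did. Chromosome 1 had 5985, or 37.8 per Mb and 0.504% of its tested CpGs, and chromosome 25 had 276, or 6.43 per Mb and 0.0469%. Levels ran from 85.6% and 81.2% on chromosome 22 to 70.9% and 66.6% on chromosome 23, which had 773 isolated CpGs. The low level of chromosome 23 rested on few places. It was 75.7% and 70.3% without the first 5 Mb, 74.7% and 70.3% without the deep site at 11037414, and 81.3% and 75.5% without both. Chromosome 19, next lowest at 76.7% and 72.7%, stood at 86.8% and 81.6% without its first 5 Mb.

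**Figure D5:**
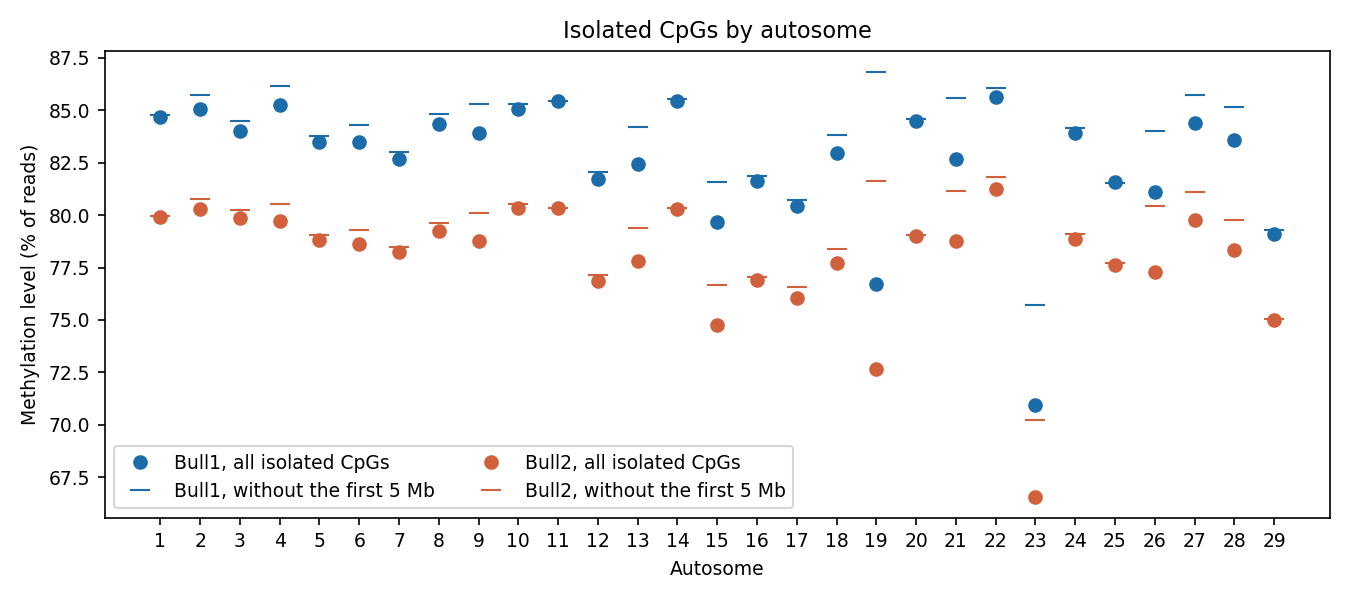
Methylation level (% of reads) of isolated CpGs on each of the 29 autosomes in Bull1 and Bull2, with all isolated CpGs (dots) and without those in the first 5 Mb (dashes). Bull1 lies above Bull2 on 29 of 29 autosomes, and chromosome 19 moves from 76.7% to 86.8% in Bull1 when its first 5 Mb are left out.

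In windows of 1 Mb, 2436 of 2529 held an isolated CpG. The median window had 20.5 and the quartiles were 9 and 37. The densest window, on chromosome 8 from 33000001 to 34000000, held 119 at levels of 80.6% and 71.8%, a difference of 8.76 points. The next, on chromosome 6 from 52000001 to 53000000, held 105 at 87.5% and 82.1%, and the one on chromosome 12 from 42000001 to 43000000 held 103 at 80.9% and 76.6%. Chosen after their values were seen, the windows with the most sites under 20% in both libraries lay on chromosome 23 from 1 to 1000000 (16 of 78 sites, 37.1% and 36.8%), on chromosome 10 from 27000001 to 28000000 (15 of 65 sites, 60.3% and 60.2%) and on chromosome 19 from 1000001 to 2000000 (14 of 64 sites, 52.1% and 49.5%). In these 3 windows the difference between the twins was 0.309, 0.0966 and 2.58 points, but sites under 20% in both libraries can differ little, so the choice of windows itself favours a small difference.

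Single isolated CpGs were compared by a two-sided Fisher exact test on methylated and unmethylated reads, with Benjamini-Hochberg adjustment over all 23108714 tested autosomal CpGs. At a false discovery rate of 0.05, 1 isolated CpG was called, against a background of 0.000351% of all tested CpGs (81 sites). The interval of the share at isolated CpGs, 3.95e-05% to 0.00870%, held the background, and the call was lost when the deeper library of each site was thinned to the depth of the other. It was also lost when sites in the top 0.1% of coverage were left out, although the called site was not among them and its reads and unadjusted p stayed as they were. Over all tested CpGs the share called fell to 0.000199% with thinning and to 5.20e-05% without the deep CpGs. By an unadjusted p of at most 0.05, 2320 isolated CpGs passed, which is 3.62% (3.48 to 3.77) against a background of 2.91%. Of these, 2082 (3.25%, background 2.57%) were higher in Bull1 and 238 (0.372%, background 0.342%) were lower. The share higher in Bull1 was 89.7% at isolated CpGs and 88.2% over all tested CpGs. Other CpGs weighted to the coverage of the isolated ones passed at 3.22%, and weighted to coverage and pooled level at 3.38%. The surplus of isolated CpGs was therefore small once coverage and level were alike. At 20 or more reads in each library, 4.81% of isolated and 4.64% of all tested CpGs passed, and the surplus was smaller. After the same thinning, 1345 isolated CpGs passed, or 2.10% against 1.49% of all tested CpGs.

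Depth limited what a single site could show. At the median depths of 21 and 23 reads, the adjusted call required at least 17 Bull2 reads without methylation when all Bull1 reads carried it, which is 73.9 points, and an unadjusted p of 0.05 required 5 such reads (21.7 points). Where that unadjusted level was met the median difference was 26.1 points for those higher in Bull1 and -29.4 points for those lower. Differences near the mean of 4.77 points were not detectable at a single site at this depth.

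The called site lay on chromosome 29 at 33835024, 528 bp from its nearest listed CpG. It had 11 of 98 methylated reads in Bull1 (11.2%) and 51 of 115 in Bull2 (44.3%), so it was lower in Bull1 by 33.1 points, with a Fisher exact p of 7.07e-08 and an adjusted p of 0.0255. The 35 tested CpGs within 2 kb stood at 76.1% and 78.8%, so the difference was not met around it. Its 98 and 115 reads were above the upper quartiles of 27 and 29.

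The sites with the smallest p that were higher in Bull1 did not pass the adjustment. On chromosome 5 at 102581849, 29 of 41 reads were methylated in Bull1 (70.7%) and 8 of 40 in Bull2 (20%), with a Fisher exact p of 5.76e-06 and an adjusted p of 0.747. On chromosome 2 at 34468570 there were 38 of 38 against 18 of 28, and on chromosome 8 at 90965207 there were 34 of 35 against 19 of 33. On chromosome 6 at 689701 there were 33 of 35 against 14 of 28, and on chromosome 8 at 93839045 there were 31 of 32 against 7 of 15. In all but the first of these, Bull1 was near full methylation and Bull2 near the middle. After the called site, those lower in Bull1 were on chromosome 2 at 12998777 (5 of 13 against 26 of 29), chromosome 15 at 36310853 (8 of 16 against 26 of 28), chromosome 7 at 57801303 (9 of 24 against 20 of 24) and chromosome 1 at 114230685 (6 of 11 against 20 of 20), each with an adjusted p of 1.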

How the data were processed

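Sperm DNA of the twin bulls was sequenced as 125 bp paired-end reads, with 1 library each. Per the labels and methods, the authors trimmed and filtered reads (Trim Galore 0.4.0, FastQC 0.11.2), aligned them to UMD3.1 with Bismark and Bowtie2, and removed duplicates. The deposited files give counts of methylated, unmethylated and all reads for each CpG, with no normalization, and a methylation fraction that the authors took from methylated over all reads. Whether both strands were summed is not stated. The fraction was checked against the counts and was not used further.

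Levels are methylated reads over all reads, in percent, with exact Clopper-Pearson intervals (Python 3.11.15, scipy 1.17.1). Fisher exact tests ran over all autosomal CpGs with at least 5 reads in both libraries, and code was tested on simulated data. Sites named were the 5 with the smallest p in each direction, the 5 farthest from a neighbour, the 5 deepest without a methylated read, the extreme autosomes, the 3 densest windows and the longest low runs. Deep sites and low windows were added after values were seen. The isolated CpGs and classes were chosen with earlier results of these data known. No sequences are shown, because no genome of this build was used here.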

Additional observations from a re-analysis of the deposited data

Results flagged for a closer look

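Isolated CpGs of chromosome X were outside the comparisons above and carried signal well above the limit that a count of 0 allows. By the same rule, 6617 were listed and 5415 had at least 5 reads in both libraries, with a median of 11 reads in each. Their level was 77.6% (77.2 to 77.9) in Bull1 and 73.2% (72.9 to 73.6) in Bull2, and the limits for a count of 0 were 0.00459% and 0.00448%.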

How the results depend on the processing

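No paired analysis was possible because the series holds only 1 library for each of the bulls. Of 74 recomputed values, 29 moved by less than their interval or, for counts, by less than 1.5 times, and 45 moved further. None reversed in sign, but levels, shares and counts cannot do so. At a minimum of 10 reads per library the levels of isolated CpGs in Bull1 and Bull2 were 83.6% and 78.8%, 2.69% lay under 20% in both, and r between the libraries was 0.849. At a minimum of 20 reads these were 83.7%, 78.9%, 2.39% and 0.873, the excess of the twin difference over other CpGs was 1.22 points, and 1234 sites (4.81%, against 4.64% of all tested CpGs) passed the unadjusted test at 0.05. Without the sites of the top 0.1% of coverage the levels were 83.5% and 78.8%, and 0 sites were called (5.20e-05% of all tested CpGs). The site called otherwise kept its reads and p and lost only the adjusted call. With more than 300 bp on both sides the levels were 83.7% and 79.1%, the excess 0.531 points, the low share 2.81%, r 0.836, and 14078 sites (3.89%, against 2.91%) passed the unadjusted test. With more than 1000 bp the levels were 83.0% and 77.9%, the difference 5.14 points, the excess 1.0004 points and r 0.835. Of these 1528 sites, 0 were called, against 0.000351% of all tested CpGs. At that share so few sites would seldom give a call. Unadjusted, 52 of them passed (3.40%, against 2.91%). Unweighted site means gave 83.1%, 78.5%, a difference of 4.64 points and an excess of 1.08 points. Thinning the deeper library of each site gave 0 calls (0.000199% of all), 1345 sites passing unadjusted (2.10%, against 1.49% of all) and r 0.810. A false discovery rate of 0.01 gave 0 calls (0.000229% of all tested CpGs were called), a 10% limit a low share of 2.67%, and Spearman's rho was 0.443. Counts at other minima or distances come from different numbers of sites. For the other moved values the cause was not tested. Leaving out CpGs next to gaps over 10 kb removed 0 sites. The values of that alternative could not move and are counted among the 29.

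Alternatives chosen after seeing the data left out 2 kinds of site. Without the first 5 Mb of each autosome the levels were 84.2% and 79.3%, the difference 4.89 points, the low share 2.72% and r 0.830. Without sites lacking a methylated read the levels were 85.0% and 80.3%, the excess 0.508 points and r 0.752. With a median of 21 and 23 reads per site, only large differences are detectable at single isolated CpGs.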

Other observations

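CpGs in other sparse stretches stood close to the isolated ones. CpGs in stretches of 2 sites set apart by more than 500 bp (98777 sites) had levels of 83.7% in Bull1 and 79.0% in Bull2, those in stretches of 3 (122586 sites) 84.0% and 79.4%, and those in stretches of 6 to 10 (942934 sites) 84.4% and 79.997%. Levels thus rose slightly with company, and the share under 20% in both libraries fell from 3.02% for isolated CpGs to 2.38% in stretches of 6 to 10. The difference between the twins was 4.67, 4.59 and 4.40 points in these stretches, against 4.77 points at isolated CpGs.

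Within stretches of 2 sites, close pairs were more methylated than wide ones. Pairs up to 10 bp apart (2426 pairs) stood at 86.1% and 81.1%, and pairs 200 to 500 bp apart (15377 pairs) at 83.3% and 78.7%, as isolated CpGs did. The direction with spacing is the opposite of that over all CpGs, where close neighbours went with low levels. Across pairs, the levels of both sites correlated with r of 0.308 in Bull1 and 0.356 in Bull2 up to 10 bp, 0.356 and 0.390 at 10 to 50 bp, and 0.251 and 0.229 at 200 to 500 bp. Close pairs share reads, so this is a description only.

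Isolated CpGs with at least 1 read in both libraries but under the coverage minimum (2306 sites, medians of 3 and 8 reads) stood at 71.7% of reads in Bull1 and 72.8% in Bull2. Their means of site levels had the other order, at 69.7% and 67.0%.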
